A study of Homo sapiens with 12 samples.

Results

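The zinc finger genes studied here are the protein-coding genes of chromosome 19 whose symbol is ZNF followed by a number and at most 1 capital letter, taken by Ensembl identifier from the GENCODE annotation of build GRCh38. The rule gave 246 genes, called members below. Of these, 244 were listed in the count files, and ZNF229 and ZNF8 were not analysed here. After a filter on low counts, 208 members were tested among 17123 genes in all, out of 63677 identifiers in the files. The other 36 members were at a mean of 0.310 counts per 1000000 counts of a library (CPM) or less, and 6 of them had no count in any library.

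RNA-seq was carried out in MiaPaca2, an established cell line from a human pancreatic ductal adenocarcinoma, given in the labels as wild type. All cells were treated for 24 h, with 3 libraries in each of 4 groups. Con cells received the solvent DMSO. CPT cells received 1 µM calcipotriol, a vitamin D analogue that activates the vitamin D receptor. GTA+5-Aza cells received 2 mM glyceryl triacetate, an acetate donor used to raise histone acetylation, with 1 µM 5-Aza-2′-deoxycytidine, a nucleoside analogue that traps DNA methyltransferases and lowers DNA methylation. CPT+GTA+5-Aza cells received all 3 agents together. Cells given GTA and 5-Aza are called primed and the others unprimed. GTA and 5-Aza were always given together, so their separate effects cannot be told apart, and all libraries come from 1 cell line.

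Most of these genes encode proteins with a row of C2H2 zinc fingers, which read DNA sequence, and many also carry a KRAB domain. KRAB recruits TRIM28, which brings the histone methyltransferase SETDB1, HP1 proteins and other repressors to the bound site, and many of these bound sites lie in retrotransposons. The genes arose by repeated tandem duplication and stand in clusters along chromosome 19, where their own bodies often carry H3K9me3, and the promoters of several are known to be methylated in tumours.

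The promoters of 6 members are shown because they span the responses described below: ZNF677 and ZNF486, which had no count in any unprimed library, ZNF320 and ZNF274, which rose with priming, and ZNF441 and ZNF787, which fell. The sequences are from RefSeq on GRCh38.p14, read 5′ to 3′ on the strand of the gene, and end just before the annotated start of the gene. Those of ZNF677 and ZNF274 are shortened to the stretch with no annotated exon. Capitals mark each CG, the dinucleotide that carries DNA methylation, which reads the same on both strands. ZNF677 is on the minus strand at chr19:53254899-53255073, ZNF486 on the plus strand at chr19:20166964-20167213, ZNF320 on the minus strand at chr19:52897695-52897944, ZNF274 on the plus strand at chr19:58182811-58183028, ZNF441 on the plus strand at chr19:11766750-11766999 and ZNF787 on the minus strand at chr19:56121296-56121545.
ZNF677: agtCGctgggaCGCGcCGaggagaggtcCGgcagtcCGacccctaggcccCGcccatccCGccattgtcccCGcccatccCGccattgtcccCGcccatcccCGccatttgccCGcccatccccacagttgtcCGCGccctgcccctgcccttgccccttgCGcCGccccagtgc
ZNF486: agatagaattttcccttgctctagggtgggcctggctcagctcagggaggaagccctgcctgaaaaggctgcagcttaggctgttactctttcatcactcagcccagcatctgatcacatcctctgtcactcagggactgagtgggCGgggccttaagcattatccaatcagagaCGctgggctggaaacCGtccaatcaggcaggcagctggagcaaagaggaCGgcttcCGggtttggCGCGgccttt
ZNF320: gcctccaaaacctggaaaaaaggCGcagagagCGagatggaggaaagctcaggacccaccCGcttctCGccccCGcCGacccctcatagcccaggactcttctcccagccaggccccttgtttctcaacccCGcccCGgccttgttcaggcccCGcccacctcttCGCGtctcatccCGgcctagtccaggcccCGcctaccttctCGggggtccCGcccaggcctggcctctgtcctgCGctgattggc
ZNF274: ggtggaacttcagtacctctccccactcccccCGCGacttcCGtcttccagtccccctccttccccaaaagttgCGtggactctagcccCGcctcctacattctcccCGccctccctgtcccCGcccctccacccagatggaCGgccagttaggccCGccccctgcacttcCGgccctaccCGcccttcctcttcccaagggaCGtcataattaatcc
ZNF441: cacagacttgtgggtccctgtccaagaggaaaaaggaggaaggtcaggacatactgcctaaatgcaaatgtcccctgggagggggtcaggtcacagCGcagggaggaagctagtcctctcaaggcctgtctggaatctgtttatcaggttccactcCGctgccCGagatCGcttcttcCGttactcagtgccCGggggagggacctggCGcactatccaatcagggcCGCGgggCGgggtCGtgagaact
ZNF787: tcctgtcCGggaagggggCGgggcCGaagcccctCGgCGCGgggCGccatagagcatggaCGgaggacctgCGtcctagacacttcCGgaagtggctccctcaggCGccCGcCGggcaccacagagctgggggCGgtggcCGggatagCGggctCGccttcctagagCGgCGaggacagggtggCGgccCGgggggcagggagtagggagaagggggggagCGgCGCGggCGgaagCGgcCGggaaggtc
ZNF677 holds 17 CG in its 175 bases shown, and ZNF787 holds 27 in 250. ZNF320 holds 16, ZNF441 holds 11 and ZNF486 holds 7, each in 250 bases, and ZNF274 holds 12 in 218. RefSeq gave a promoter for 216 members. Over the 250 bases before the start, the median was 16 CG in members and 17 over the promoters of 15345 protein-coding genes, and at least 1 CG was present in all of the former and 96.9% of the latter. These are counts of letters, and DNA methylation was not measured in these libraries.

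The libraries held between 16162490 and 21224665 counts each. KRT8 at 1410 to 1740 CPM, KRT18 at 644 to 854 CPM and VIM at 5310 to 6590 CPM were high in every library. KRT19 was at 28.4 to 41.4 CPM, KRT7 at 0.210 to 2.77 CPM, and EPCAM had 2 counts in all. CD3E, PECAM1, CDH5, PRSS1, CPA1, INS, GCG and ALB had none, while PTPRC had 8, DCN 4, CD14 147 and COL1A1 187 counts over the 12 libraries. The study's methods describe its samples as independent, but neither they nor the labels say that these libraries came from separate cultures, so p-values measure the spread between these samples, which may be technical. COL1A1, a fibroblast marker, was at means of 0.135 and 0.126 CPM in Con and CPT and 1.70 and 1.44 CPM in GTA+5-Aza and CPT+GTA+5-Aza, and its part in the results was not tested. In bulk samples, fewer cells expressing a gene and less RNA per cell cannot be told apart, and intervals and floors cover counting error only.

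Members were expressed at low to moderate levels. The mean over the 12 libraries had a median of 8.20 CPM over the 208 tested members, with a range of 0.214 to 125.8 CPM, against a median of 15.9 CPM over all genes tested. Per kilobase of exon, the highest mean levels were those of ZNF146 at 30.4, ZNF428 at 17.5, ZNF358 at 13.2, ZNF787 at 11.7 and ZNF580 at 9.07 CPM per kb. ZNF146, also known as OZF, encodes little beyond its zinc fingers. It was at 134 ± 2.09 CPM in Con, 128 ± 2.29 in CPT, 121 ± 10.5 in GTA+5-Aza and 120 ± 3.95 in CPT+GTA+5-Aza (mean ± SD, n = 3), a difference with priming that did not pass the test (log2 fold change -0.12, SE 0.05, edgeR adjusted p = 0.0525). Throughout, members were tested with edgeR's quasi-likelihood test, fitted to all genes and all 12 libraries, and called at a Benjamini-Hochberg adjusted p under 0.05 over the 17123 genes.

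Priming was followed by reads from members that had none without it. A count was found for 212 to 217 of the 244 members in each unprimed library and for 225 to 228 in each primed library, which is 86.9% to 88.9% and 92.2% to 93.4% of them. Over all protein-coding genes the shares were 68.7% to 70.0% and 70.7% to 72.1%. The primed libraries were not the deeper ones, with 107865384 counts in all against 119163726 in the unprimed ones. Of 22 members at 0 in all 6 unprimed libraries, 16 had a count in a primed library, 6.56% of the 244 members and 72.7% of the 22. Among all protein-coding genes the same was seen for 4.75% of the list and 19.8% of those at 0, among ZNF genes on other chromosomes for 3.88% and 35.7%, and among other protein-coding genes of chromosome 19 for 4.99% and 21.7%. The reverse, a member counted in unprimed cells and at 0 in all primed libraries, was seen for 0 members, against a background of 1.67%. These counts came with no test, and 11 of the 16 members reached more than 3 counts over the 6 primed libraries.

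ZNF677 was the clearest of them. It is a KRAB zinc finger gene whose promoter is known to be methylated in several tumour types (ENSG00000197928, minus strand, chr19:53235381-53254898). Its exons overlap a gene on the opposite strand, and the strand setting of the counting is not known, so reads of both genes cannot be told apart. ZNF677 had no read in the 3 Con and 3 CPT libraries. It had 12, 15 and 13 reads in GTA+5-Aza and 5, 1 and 2 in CPT+GTA+5-Aza. In CPM, GTA+5-Aza was at 0.641, 0.751 and 0.734, so that the 3 GTA+5-Aza libraries stood above every other library, and the CPT+GTA+5-Aza libraries at 0.264, 0.0568 and 0.122 lay between. Against a floor of 3 counts per library, ZNF677 was at least 4.76-fold higher in GTA+5-Aza than in Con, and was called (edgeR adjusted p = 0.00151). It passed the filter on low counts only through the GTA+5-Aza libraries, so that it had to differ, and this call is a description. With CPT the group mean was under the floor, no fold is given, and the call was not made (edgeR adjusted p = 0.0687). The difference between the primed groups, lower with CPT by 2.19 on the log2 scale (SE 0.86), had an unadjusted P of 0.0178 and an edgeR adjusted p of 1. Since ZNF677 passed the filter only through the GTA+5-Aza libraries, this difference and its P are a description too.

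ZNF486 was the other member at 0 in every unprimed library and counted in every primed one (ENSG00000256229, plus strand, chr19:20167214-20200488). Its reads were 2, 9 and 13 in GTA+5-Aza and 4, 1 and 5 in CPT+GTA+5-Aza, which left it under the filter, so it was not tested. Against the same floor it was at least 2.89-fold higher in GTA+5-Aza than in Con and at least 1.21-fold higher in CPT+GTA+5-Aza than in CPT. ZNF486 lies in 19p12, in a group of 37 members in the files between 19.7 and 24.1 Mb, named cluster 5 here.

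Cluster 5 supplied most of the members that had no read in unprimed cells. All of its 15 untested members were at 0 in the 6 unprimed libraries, and 10 of these had reads in primed cells, while 5 had none anywhere. Summed over the 15, the reads were 0 in each unprimed library, then 19, 22 and 23 in GTA+5-Aza and 21, 14 and 13 in CPT+GTA+5-Aza, 112 in all. The untested members of the other clusters together had 233 reads in unprimed and 273 in primed cells. After ZNF486 the highest sums in cluster 5 were 17 reads for ZNF257, 15 for ZNF726, and 11 each for ZNF43 and ZNF492, genes picked out after their values were seen. ZNF492 owed 10 of its reads to GTA+5-Aza replicate 1, and 30.3% of the 75-base words in its exons also occur elsewhere on chromosome 19. Exons of ZNF90, ZNF492 and ZNF726 overlap at least 1 gene on the opposite strand, so their reads cannot be told apart from those of that gene. Outside cluster 5, ZNF534 had 17, 1 and 2 reads in GTA+5-Aza and 0, 1 and 0 in CPT+GTA+5-Aza, so its sum also rests on GTA+5-Aza replicate 1. ZNF560, likewise picked out afterwards and not tested, had 0, 0 and 4 reads in Con, 0, 2 and 0 in CPT, 7, 8 and 1 in GTA+5-Aza and 4, 4 and 20 in CPT+GTA+5-Aza. The promoters of cluster 5 were poorer in CG, with a median of 8 in 250 bases and a range of 3 to 14 over 29 members, against a median of 17 and a range of 1 to 39 over the other 187.

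**Figure D1:**
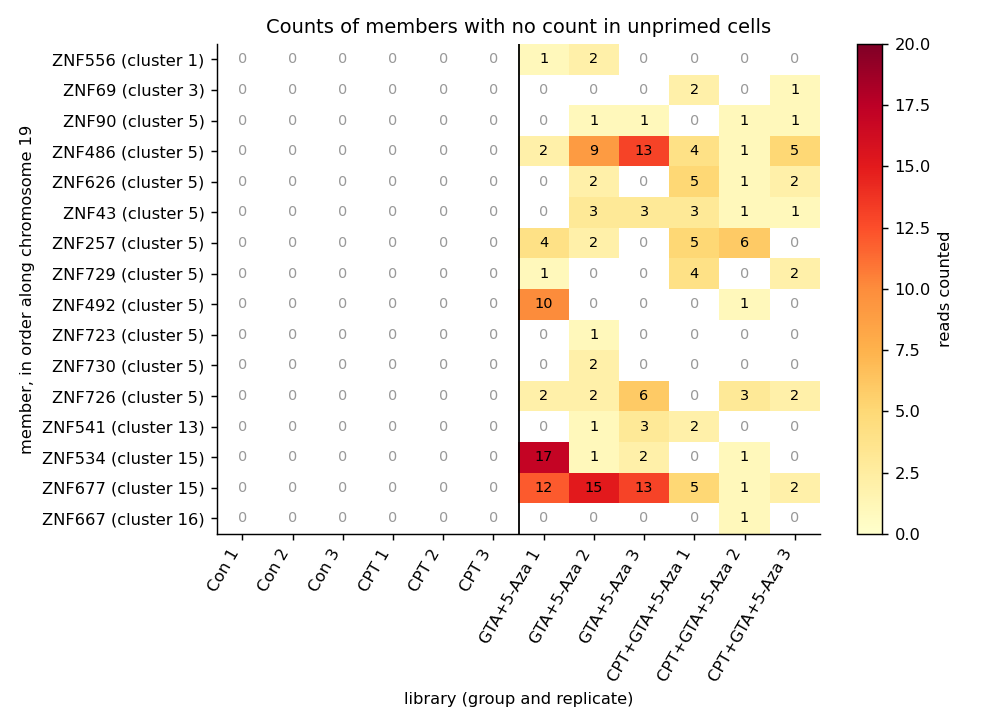
Reads counted for the 16 members that had no read in the 6 unprimed libraries (left of the line) and at least 1 in a primed library (right of it), 1 row per member in order along chromosome 19 and 1 column per library, with colour giving the number of reads. ZNF677 and ZNF486 are the rows with reads in all 6 primed libraries, and 10 of the 16 rows belong to cluster 5.

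Among the tested members, the comparison of GTA+5-Aza with Con asked how priming changed these genes in cells without CPT. In this comparison 15 members were called higher and 1 lower, 7.21% and 0.481% of the 208, against 9.95% and 7.53% of all genes tested. The share called higher lay near that of all genes and the share called lower was under it. Once a trend of fold change with exon GC content was removed, 21 members were called higher, 10.1% against 9.46% of all genes. The members as a whole lay above zero, with a median log2 fold change of 0.11 against 0.01 over all genes, and 145 members (69.7%) had a positive value against 50.9% of all genes. Other protein-coding genes of chromosome 19 had the same median of 0.11, with 19.7% called higher and 2.75% lower, and ZNF genes on other chromosomes a median of 0.02. A second rule, called the fold rule here, took a fold change above 1.5 with an unadjusted P under 0.05. Its thresholds are those in the study's methods, which do not say whether P was adjusted or was tested against that fold. By the fold rule 11 members were higher and 1 lower, or 5.29% and 0.481% against 6.82% and 1.62% of all genes. The 15 higher calls became 6 and 8 without Con replicates 1 and 3, and 4, 6 and 9 without GTA+5-Aza replicates 1, 2 and 3.

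The members called higher without CPT, ordered by p, began with ZNF677, ZNF471, ZNF224, ZNF470, ZNF134, ZNF234, ZNF28, ZNF577, ZNF274 and ZNF568. ZNF471, a KRAB zinc finger gene known to be methylated in gastric and other cancers, was at 3.37, 4.05 and 3.31 CPM in Con and at 6.20, 7.96 and 6.83 in GTA+5-Aza. All 3 GTA+5-Aza values lay well above all Con values (log2 fold change 0.97, SE 0.22, edgeR adjusted p = 0.00221). In CPT it was at 3.19, 3.05 and 4.15 CPM and in CPT+GTA+5-Aza at 4.23, 5.56 and 4.96, also without overlap, but the smaller difference there was not called (0.51, SE 0.22, edgeR adjusted p = 0.122).

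ZNF224, a KRAB repressor known from the promoter of the aldolase A gene, was at 8.94, 8.91 and 9.09 CPM in Con and at 14.4, 15.5 and 11.3 in GTA+5-Aza. The Con libraries were almost equal and lay below all treated ones (0.61, SE 0.15, edgeR adjusted p = 0.00509). In CPT it was at 11.3, 10.5 and 11.4 and in CPT+GTA+5-Aza at 15.1, 13.0 and 11.3 CPM, where the groups overlapped (0.25, edgeR adjusted p = 0.29). Its neighbour ZNF234 rose from 7.64 ± 2.40 to 11.6 ± 0.803 CPM without CPT (0.60, SE 0.18, edgeR adjusted p = 0.024), and was at 9.46 ± 1.64 and 8.64 ± 0.306 CPM in CPT and CPT+GTA+5-Aza (n = 3 each). ZNF470 rose from 11.2 ± 1.29 to 15.3 ± 1.68 CPM (0.45, SE 0.13, edgeR adjusted p = 0.0195), and in CPT cells it was already at 14.2 ± 0.183 CPM, against 15.3 ± 0.699 with all 3 agents. ZNF568, whose mouse counterpart represses a placental Igf2 transcript, rose from 1.49 ± 0.382 to 3.06 ± 0.736 CPM (1.03, SE 0.34, edgeR adjusted p = 0.0364). That call was lost without any 1 of the 6 libraries compared, the ZNF470 call without Con replicate 1 or 3 or GTA+5-Aza replicate 1 or 2, and the ZNF234 call without Con or GTA+5-Aza replicate 1 or 2.

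Further members called higher without CPT were ZNF358, ZNF230, ZNF227, ZNF211 and ZNF135, with log2 fold changes of 0.35, 0.76, 0.44, 0.62 and 0.44. ZNF230 and ZNF227 stand beside ZNF224 and ZNF234 in the same cluster. The 1 member called lower was ZNF566, described with the comparison over all libraries.

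**Figure D2:**
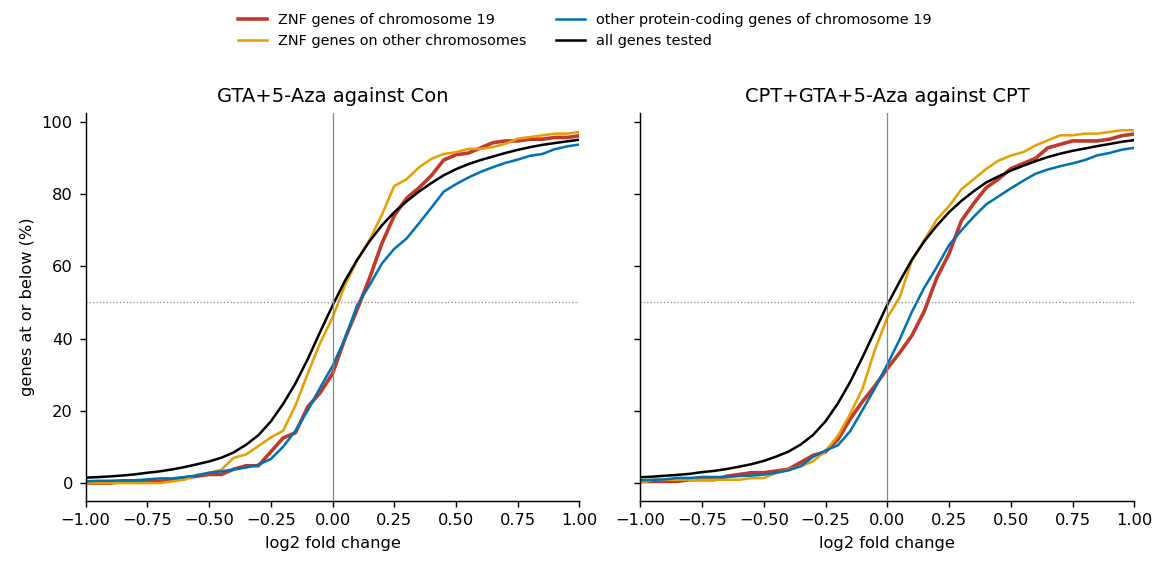
Share of genes (y axis, %) with a log2 fold change at or below the value on the x axis, for priming without CPT (left) and with CPT (right), in the ZNF genes of chromosome 19, ZNF genes on other chromosomes, other protein-coding genes of chromosome 19 and all genes tested. The curve of the chromosome 19 ZNF genes crosses 50% at medians of 0.11 and 0.15, to the right of all genes at 0.01 in both panels, and close to the other genes of chromosome 19 at 0.11 and 0.12.

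The comparison of CPT+GTA+5-Aza with CPT asked the same in cells that received CPT, and shares no library with the first. Here 10 members were called higher and 2 lower, 4.81% and 0.962% against 9.57% and 7.39% of all genes tested. The median log2 fold change was 0.15 against 0.01 over all genes, and 142 members (68.3%) had a positive value. The fold rule gave 14 higher and 3 lower members, 6.73% and 1.44%, against 6.93% and 1.74% of all genes. The count of members called higher depends on the correction for base composition: it was 25 once a trend of fold change with exon GC content was removed, 12% against 9.76% of all genes in that fit. With scaling by library size alone it was 16, 7.69% against 11.6%. The members' share thus lay under that of all genes before the GC correction and above it afterwards. It was 6 without CPT+GTA+5-Aza replicate 3, and the 2 lower calls became 1 without CPT replicate 1 and 0 without CPT+GTA+5-Aza replicate 2. Median exon GC was 43.2% in tested members, 48.4% in all genes tested and 59.9% in the other genes of chromosome 19.

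By p, those called higher with CPT were ZNF28, ZNF221, ZNF114, ZNF850, ZNF792, ZNF274, ZNF577, ZNF418, ZNF134 and ZNF829. ZNF221 was at 0.825, 0.541 and 1.20 CPM in CPT and at 2.27, 2.61 and 3.18 in CPT+GTA+5-Aza. The groups were far apart (1.65, SE 0.40, edgeR adjusted p = 0.00454). In Con it was at 1.68, 1.81 and 1.65 CPM, above all CPT values, and in GTA+5-Aza at 3.47, 3.26 and 1.41, which overlapped Con (0.66, SE 0.37, edgeR adjusted p = 0.239).

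ZNF114 was at 0.715, 0.492 and 0.109 CPM in CPT and 2.59, 1.42 and 1.78 in CPT+GTA+5-Aza (2.12, SE 0.53, edgeR adjusted p = 0.00635). It was at 0.526, 0.762 and 0.681 in Con and 1.23, 2.30 and 1.64 in GTA+5-Aza (1.38, SE 0.51, edgeR adjusted p = 0.0604). Both primed groups thus lay above both unprimed groups with no overlap, although the comparison without CPT missed the threshold.

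ZNF792 rose from 2.11 ± 0.462 in CPT to 4.16 ± 0.981 CPM in CPT+GTA+5-Aza (0.98, SE 0.28, edgeR adjusted p = 0.0157), a call lost without CPT replicate 1 or 3 or CPT+GTA+5-Aza replicate 1. ZNF850 rose from 15.6 ± 1.32 to 22 ± 1.68 CPM (0.49, SE 0.13, edgeR adjusted p = 0.00757). ZNF418 rested on few reads, at 0.165, 0.148 and 0 CPM in CPT and 0.475, 1.02 and 0.674 in CPT+GTA+5-Aza (2.71, SE 0.86, edgeR adjusted p = 0.0295). Its call was lost without CPT replicate 1 or 3 or CPT+GTA+5-Aza replicate 2 or 3. ZNF418 could pass the filter on low counts only with primed libraries, so that this call is a description. The ZNF829 call (0.71, SE 0.25, edgeR adjusted p = 0.0461) was kept in 9 of 20 alternative fits.

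Of the 23 members called in either, 5 were called in both and in the same direction, which is 31.2% of the 16 called without CPT and 41.7% of the 12 called with CPT. ZNF28, ZNF577, ZNF274 and ZNF134 were higher and ZNF566 lower. With CPT the calls were kept in 20 of 20 alternative fits for ZNF28, 17 for ZNF577, 16 for ZNF274, 13 for ZNF134 and 16 for ZNF566, and without CPT in 15, 15, 13, 17 and 13 of 20. A positive log2 fold change in both was found for 115 members (55.3%) and a negative one for 36 (17.3%), against 38.9% and 37.3% of all genes tested. Over the 208 members the log2 fold changes had a Spearman correlation of 0.473, as a description across genes that share their libraries.

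**Figure D3:**
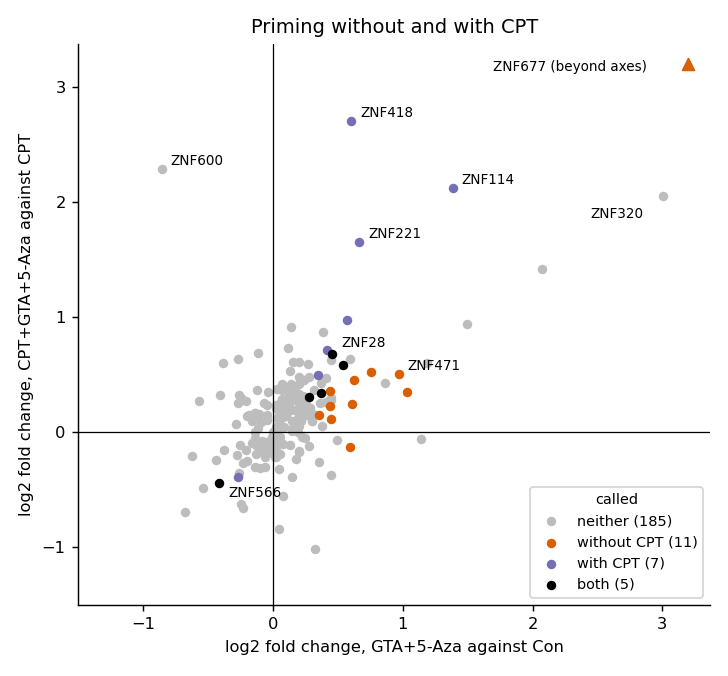
Log2 fold change with priming in cells without CPT (x axis) and with CPT (y axis) for the 208 tested members, coloured by whether the member was called in neither comparison, 1 of them or both. ZNF677, which had no count in Con and CPT, is drawn as a triangle at the corner, not to scale. The 5 members called in both have modest changes, and the members with the largest ones were called in 1 comparison or in neither.

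Taking priming over all libraries, 6 against 6, 32 members were called higher and 4 lower, 15.4% and 1.92% against 16.8% and 14% of all genes tested. The share called higher was close to the background and the share called lower was well under it. With the GC trend removed 47 members were called higher and 8 lower, 22.6% and 3.85% against 16.1% and 16.5% of all genes. The members ZNF320, ZNF418, ZNF525, ZNF582, ZNF600, ZNF677 and ZNF836 reached the 0.535 CPM of the filter in at least 3 primed but fewer than 3 unprimed libraries, and 3 of these 7 were called higher. ZNF382 passed through unprimed libraries in the same way and was not called. Among the other 200 members 14.5% were called higher and 2.0% lower, against 16.5% and 14.7% of the genes that passed in neither of these ways. ZNF genes on other chromosomes were called higher in 14% and lower in 9.35%, and other protein-coding genes of chromosome 19 in 29.8% and 6.8%. Most changes were small: by the fold rule 12 members were higher and 0 lower, against 7.81% and 1.79% of all genes. At an unadjusted P under 0.05 the numbers were 53 and 11, together 30.8% against 40.1% of all genes, and DESeq2 called 33 higher and 7 lower by adjusted p. The median log2 fold change was 0.12 against 0.01 over all genes, 0.02 in ZNF genes on other chromosomes and 0.11 in other genes of chromosome 19. Summed over members, the level was 2392 ± 34.5 CPM in Con and 2365 ± 55.8 in CPT, and 2513 ± 81.0 in GTA+5-Aza and 2511 ± 38.9 in CPT+GTA+5-Aza (n = 3 each).

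In 10 tested members every primed library lay above every unprimed one, 4.81% against 8.04% of all genes tested. These were ZNF28, ZNF577, ZNF274, ZNF134, ZNF114, ZNF471, ZNF677, ZNF850, ZNF256 and ZNF135. ZNF28, a KRAB zinc finger gene on the minus strand at chr19:52797408-52857600, was at 9.68, 9.24 and 11.6 CPM in Con and 8.80, 10.1 and 10.5 in CPT. It was at 13.3, 15.8 and 12.6 in GTA+5-Aza and 14.3, 16.2 and 16.3 in CPT+GTA+5-Aza. The lowest primed library, at 12.6, was above the highest unprimed one, at 11.6 (0.56, SE 0.10, edgeR adjusted p = 0.00011).

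ZNF577, also a KRAB zinc finger gene, was at 5.06 to 7.26 CPM in the 6 unprimed and 7.57 to 9.77 in the 6 primed libraries (0.56, SE 0.12, edgeR adjusted p = 0.000906). ZNF134 was at 19.2 to 21.6 CPM unprimed and 22.6 to 28.2 primed (0.35, SE 0.08, edgeR adjusted p = 0.00101). ZNF850 was at 14.7 to 17.1 CPM unprimed and 17.6 to 23.8 primed (0.42, SE 0.09, edgeR adjusted p = 0.000662). In each of these the gap between the groups was narrow, and the calls over all libraries for ZNF28, ZNF577, ZNF134, ZNF850, ZNF114 and ZNF471 held in all 19 alternative fits, and that of ZNF677 in the 18 that included it.

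ZNF274 has a role of its own among the members, since its protein binds the coding ends of zinc finger genes on chromosome 19 and brings SETDB1 there. It is on the plus strand at chr19:58183029-58213562, at the distal end of the long arm. It was at 34.8, 33.6 and 32.5 CPM in Con and 33.2, 36.6 and 31.5 in CPT. It was at 40.9, 40.0 and 41.2 in GTA+5-Aza and 43.1, 40.4 and 41.8 in CPT+GTA+5-Aza. The primed libraries were all higher, by a modest 0.29 on the log2 scale (SE 0.06, edgeR adjusted p = 0.000961). The calls of ZNF274, ZNF28, ZNF577 and ZNF134 in the separate comparison of GTA+5-Aza with Con did not survive leaving out GTA+5-Aza replicate 1, among other libraries.

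Some members with few reads were called as well. ZNF320 was at 0.210, 0 and 0 CPM in Con, 0.330, 0 and 0 in CPT, 0.321, 0.751 and 0.677 in GTA+5-Aza and 0.106, 0.625 and 0.674 in CPT+GTA+5-Aza. Replicate 1 of each group stood apart from replicates 2 and 3, and CPT+GTA+5-Aza replicate 1 lay below the unprimed libraries with reads (2.53, SE 0.78, edgeR adjusted p = 0.0146). ZNF320 passed the filter only through primed libraries, as did ZNF677, so that its call is a description. ZNF221, at 0.541 to 1.81 CPM unprimed and 1.41 to 3.47 primed, rose by 1.16 (SE 0.27, edgeR adjusted p = 0.00163) with overlap in GTA+5-Aza replicate 3. ZNF418 had a log2 fold change of 1.65 (SE 0.56, edgeR adjusted p = 0.0256). Only 1 unprimed library reached the filter's CPM, so that its call is a description too.

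The other members called higher over all libraries were ZNF792, ZNF135, ZNF440, ZNF211, ZNF230, ZNF530, ZNF829, ZNF227, ZNF256, ZNF93, ZNF358, ZNF470, ZNF121, ZNF585A, ZNF568, ZNF468, ZNF302, ZNF101, ZNF155, ZNF222 and ZNF224, with log2 fold changes between 0.20 for ZNF302 and 0.77 for ZNF792. The call over all libraries was kept in 13 of 19 alternative fits for ZNF358 and in 14 of 19 for ZNF568. Part of the exon sequence of ZNF585A (9.84%), ZNF302 (5.21%) and ZNF440 (4.72%) also occurs elsewhere on chromosome 19 as 75-base words, so reads could be shared there. Exons of 11 of the 36 called members overlap a gene on the opposite strand, as do those of 72 of the 208 tested members. The strand setting of the counting is not given in the sources used here, so these reads cannot be told apart from those of the partner.

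**Figure D4:**
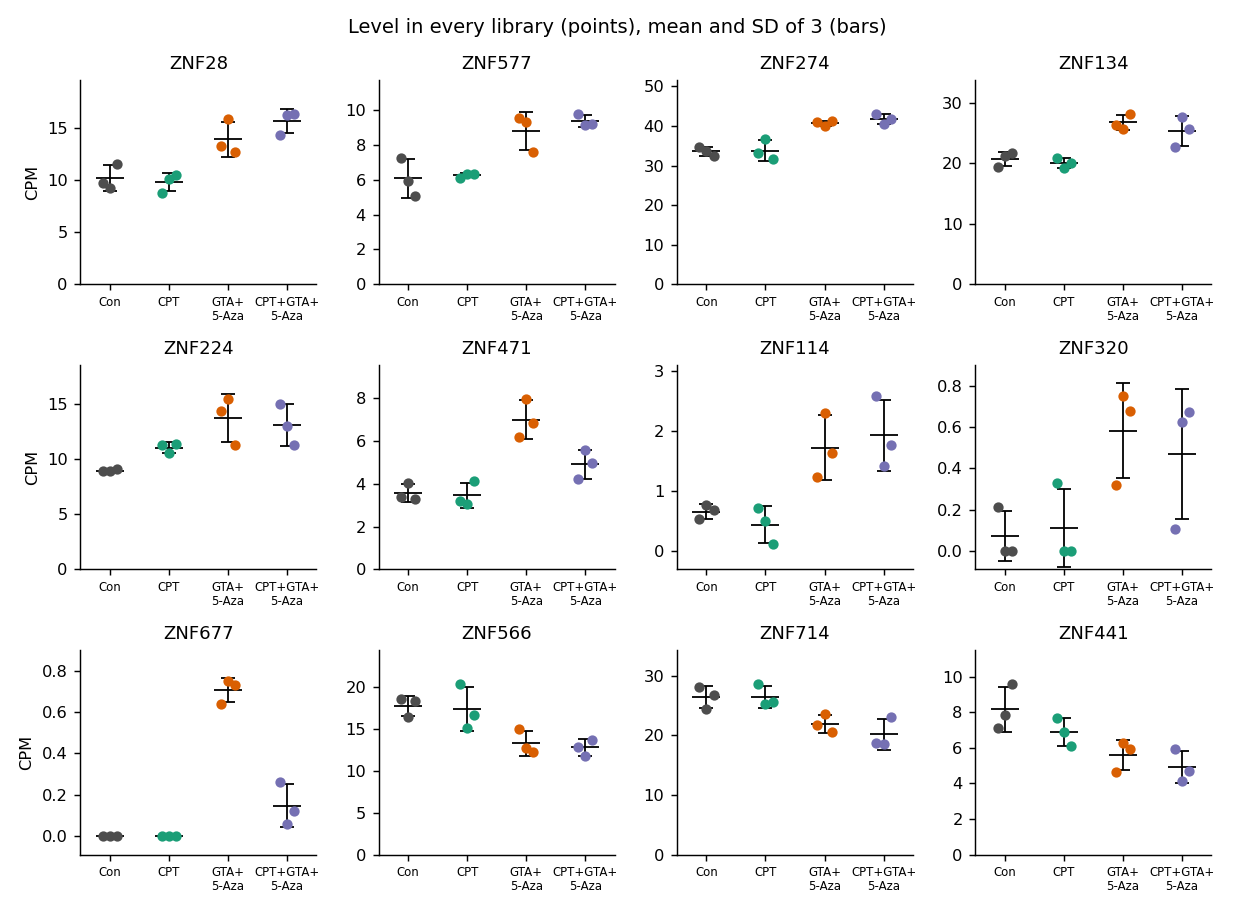
Level in CPM (y axis, 1 scale per gene) in every library of the 4 groups for 12 members, with points for libraries and bars for the mean and SD of 3. ZNF28, ZNF577, ZNF274, ZNF134, ZNF471, ZNF114 and ZNF677 have every primed library above every unprimed one, ZNF224 and ZNF320 overlap, ZNF566 and ZNF714 have every primed library below, and ZNF441 overlaps slightly.

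The 4 members that fell were ZNF566, ZNF714, ZNF441 and ZNF787. ZNF566, a KRAB zinc finger gene, was at 18.5, 16.4 and 18.4 CPM in Con and 20.3, 15.2 and 16.6 in CPT, and at 15, 12.7 and 12.3 in GTA+5-Aza and 12.9, 11.8 and 13.7 in CPT+GTA+5-Aza. The highest primed library was just below the lowest unprimed one (log2 fold change -0.43, SE 0.10, edgeR adjusted p = 0.00118). ZNF714, of cluster 5, was at 24.5 to 28.6 CPM unprimed and 18.6 to 23.6 primed, also without overlap (-0.33, SE 0.08, edgeR adjusted p = 0.00271). These are the 2 members with every primed library below every unprimed one, 0.962% against 6.81% of all genes tested.

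ZNF441 was at 6.11 to 9.58 CPM unprimed and 4.14 to 6.26 primed, with a slight overlap (-0.51, SE 0.14, edgeR adjusted p = 0.00588). ZNF787, among the members with the highest level per kilobase, was at 45.2 ± 5.58 CPM in Con, 47.7 ± 7.79 in CPT, 41.0 ± 1.82 in GTA+5-Aza and 38.7 ± 2.19 in CPT+GTA+5-Aza (-0.22, SE 0.08, edgeR adjusted p = 0.0259), and its call was kept in 13 of 19 alternative fits. The calls of ZNF566, ZNF714 and ZNF441 over all libraries held in all 19. The ZNF566 call without CPT was lost without Con replicate 1 or 3 or GTA+5-Aza replicate 2 or 3, and that with CPT without CPT replicate 1 or CPT+GTA+5-Aza replicate 1 or 2.

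ZNF91 and ZNF93 are known for silencing repeats. ZNF91, whose protein represses SVA retrotransposons, was at 36.3 ± 1.75 CPM in Con, 33.7 ± 2.95 in CPT, 30.4 ± 3.21 in GTA+5-Aza and 31.2 ± 2.32 in CPT+GTA+5-Aza, and was not called over all libraries (-0.18, SE 0.07, edgeR adjusted p = 0.0625). ZNF93, which represses L1 elements and is also in cluster 5, was at 3.79 ± 0.593, 3.58 ± 1.22, 5.18 ± 0.782 and 5.52 ± 1.15 CPM in the same order of groups and was called higher (0.54, SE 0.18, edgeR adjusted p = 0.0213). The ZNF93 call was kept in 16 of 19 alternative fits and was lost without CPT replicate 3, GTA+5-Aza replicate 2 or CPT+GTA+5-Aza replicate 1.

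Of 8 members known for promoter methylation in tumours, ZNF677 and ZNF471 were called higher over all libraries. Another 5 were tested and not called, and ZNF177 was not tested. Of all genes tested 16.8% were called higher, and ZNF677 passed the filter only through primed libraries, so this count gives no result for the set. ZNF582 was at 0.239 ± 0.297 CPM in Con, 0.502 ± 0.212 in CPT, 0.696 ± 0.397 in GTA+5-Aza and 0.969 ± 0.351 in CPT+GTA+5-Aza, with overlap (1.22, SE 0.53, edgeR adjusted p = 0.0809). It could pass the filter only with primed libraries, so these values are a description. ZNF671 was at 0.857 ± 0.561, 0.903 ± 0.426, 1.91 ± 0.646 and 0.859 ± 0.267 CPM (0.54, SE 0.39, edgeR adjusted p = 0.32), so only its mean in GTA+5-Aza stood out. ZNF154 (0.29) and ZNF382 (-0.68) had edgeR adjusted p of 0.505 and 0.349. ZNF382 passed the filter through unprimed libraries, so its negative value is a description as well. ZNF331, at 16.1 ± 0.363, 17.8 ± 1.66, 16.1 ± 0.867 and 17.7 ± 2.23 CPM, had a log2 fold change so near zero that its sign changed with the scaling (edgeR adjusted p = 1). ZNF350, a partner of BRCA1 in repression, and ZNF420, a regulator of p53, had log2 fold changes of 0.12 and 0.20 (edgeR adjusted p = 0.687 and 0.29). ZNF649 had 0.22 and ZNF610 0.22, with edgeR adjusted p of 0.116 and 0.554.

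Along the chromosome, members were split into 16 groups wherever neighbouring starts lay over 1 Mb apart, and 7 of these held 10 or more members. Their median log2 fold changes over all libraries were all positive, from 0.05 in cluster 3 at 11.5 to 12.6 Mb to 0.20 in cluster 15 at 51.6 to 53.6 Mb. Beside the counts below stand the 16.8% of all genes called higher and 14% called lower. In cluster 15, which holds ZNF28, ZNF320, ZNF577 and ZNF677, 30 of 34 tested members had a positive value and 5 were called higher. Over all genes tested 51.0% had a positive value. ZNF320 and ZNF677 passed the filter only through primed libraries, so their positive values and calls are descriptions. The clusters together hold 7 members that passed in this way, and counts by cluster without them were not made. In cluster 12 at 43.5 to 45.1 Mb, which holds ZNF221, ZNF224 and ZNF227, 6 of 23 were called higher, with a median of 0.17, while of 18 other tested genes in the same span 9 were higher and 2 lower, with a median of 0.26. In cluster 16, from 55.5 to 58.5 Mb, 9 of 56 members were called higher and 1 lower. Cluster 9, from 36.2 to 37.8 Mb, had 4 higher and 1 lower of 26. Of the groups with fewer tested members, cluster 5 had 2 higher and 1 lower of 22, cluster 3 had 1 of each among 16, and cluster 2, from 7.1 to 9.8 Mb, had 2 higher of 13. Calls were found in all 7 groups, and differences between them were not tested.

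**Figure D5:**
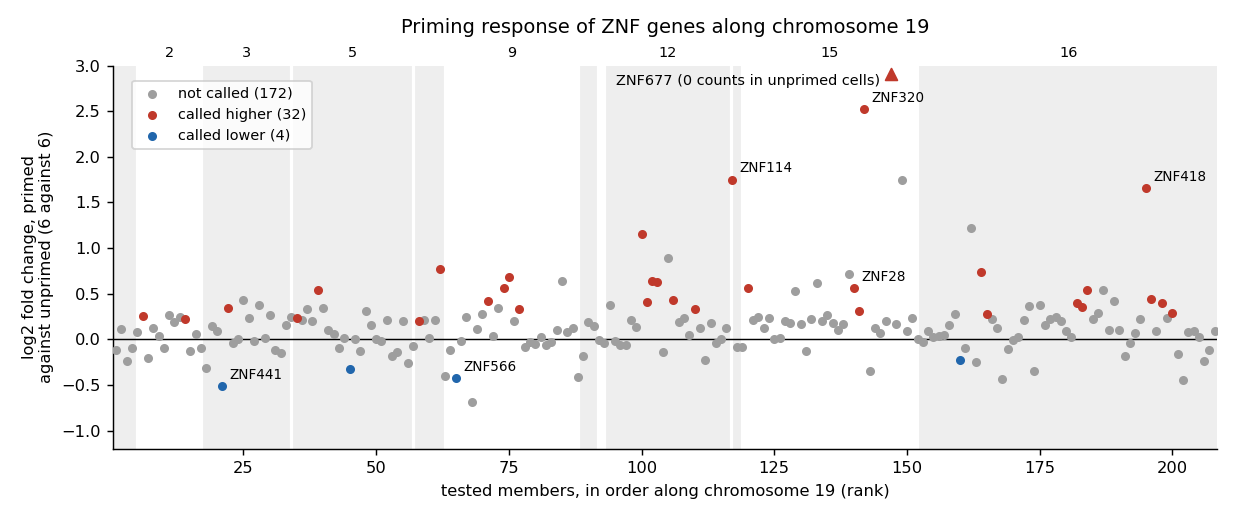
Log2 fold change of primed against unprimed cells, 6 libraries against 6 (y axis), for the 208 tested members in order along chromosome 19 (x axis, rank), with bands for position clusters and numbers over those with at least 10 tested members. Members called higher (32 in all) are found in every numbered cluster, and the 4 called lower lie in clusters 3, 5, 9 and 16, and ZNF677, with no count in unprimed cells, is a triangle at the top, not to scale.

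The number of CG in the promoter and the response to priming had rank correlations near zero. Over the 185 tested members with a RefSeq promoter of 300 bases, Spearman's rho with the log2 fold change was 0.094 without CPT, -0.02 with CPT and 0.019 over all libraries. Over 250 bases the median number of CG was 16.5 in 26 members called higher, 16 in the 4 called lower and 16 in 155 not called. Between mean CPM and the signed log2 fold change, rho was -0.205 over all libraries (208 members). The 208 include 7 members with few reads that could pass the filter only with primed libraries, which favours positive values at low levels. Only 1 member passed through unprimed libraries in the same way. The rho without these members was not computed, so no result about level is drawn from it. These are descriptions across genes that share their libraries.

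Library by library, the median deviation of members from their own mean ran from -0.11 to -0.01 in unprimed and from -0.002 to 0.104 in primed libraries on the log2 scale. CPT replicate 2 was the lowest unprimed library and GTA+5-Aza replicate 3 the lowest primed one. In both, the other protein-coding genes of chromosome 19 deviated the other way, by 0.07 and 0.14, each the highest of its kind in unprimed and primed cells, and the part of this in the members' values was not tested. Without CPT replicate 2, 7 members were called lower over all libraries in place of 4, and the median was 0.11.

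CPT alone changed no member past the threshold. In CPT against Con edgeR called 0 members and DESeq2 also 0, and 13 (6.25%) had an unadjusted P under 0.05 against 4.28% of all genes tested. By edgeR's adjusted p 0 of all 17123 genes were called either. By the fold rule 3 members were higher and 5 lower, 1.44% and 2.4% against 0.689% and 1.14%. The smallest p was that of ZNF772, at 14.4, 14.9 and 13.9 CPM in Con and 10.8, 10.4 and 10.2 in CPT. These groups did not overlap, but the difference did not hold after adjustment (-0.46, SE 0.13, edgeR unadjusted P = 0.00143, adjusted p = 0.935). ZNF524 was at 9.62 ± 1.53 and 5.92 ± 2.46 CPM (-0.69, edgeR unadjusted P = 0.00437, adjusted p = 0.998) and ZNF701 at 3.83 ± 0.615 and 2.04 ± 0.638 CPM (-0.90, edgeR unadjusted P = 0.00744, adjusted p = 1).

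In primed cells, CPT+GTA+5-Aza against GTA+5-Aza gave 0 members called by edgeR and 0 by DESeq2, and 8 (3.85%) at an unadjusted P under 0.05 against 2.71% of all genes. By the fold rule 2 were higher and 3 lower, 0.962% and 1.44% against 0.345% and 0.66%. ZNF600 was at 0.214, 0 and 0.113 CPM in GTA+5-Aza and at 0.740, 0.681 and 0.735 in CPT+GTA+5-Aza, where all 3 libraries stood above every other library of the series (2.67, SE 0.87, edgeR unadjusted P = 0.00504, adjusted p = 1). It passed the filter only through these 3 libraries, so that it had to stand apart, and its P is a description. It was at 0.202 ± 0.110 CPM in Con and 0.144 ± 0.087 in CPT (n = 3), and 5.87% of its exon words recur elsewhere on chromosome 19. ZNF737 was at 3.78 ± 1.15 and 6.26 ± 1.22 CPM (0.72, edgeR unadjusted P = 0.0116, adjusted p = 1).

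The interaction asked whether the response to CPT differed between primed and unprimed cells, which is also whether the response to priming differed with CPT. edgeR called 0 members and DESeq2 0, and 7 (3.37%) had an unadjusted P under 0.05 against 2.63% of all genes tested. The fold rule gave 3 higher and 2 lower, 1.44% and 0.962% against 0.934% and 0.841%. The smallest p were those of ZNF234 (-0.73, SE 0.26, edgeR unadjusted P = 0.00983, adjusted p = 1), ZNF737 (0.98, SE 0.38, edgeR unadjusted P = 0.0149, adjusted p = 1) and ZNF790 (-0.82, SE 0.32, edgeR unadjusted P = 0.0155, adjusted p = 1). The members called in 1 priming comparison and not in the other, such as ZNF224, ZNF471, ZNF677 and ZNF221, are therefore not shown to differ between them.

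The genes that KRAB zinc finger proteins work with were counted in the same way. Of 26 partners of the KRAB repressor complex, listed with earlier results of these data known, 25 were tested. UHRF1 was not analysed here, so its level is not described. In GTA+5-Aza against Con 2 were called higher and 3 lower, with CPT 2 and 3, and over all libraries 2 and 5, which is 20%, 20% and 28% of the 25 against 17.5%, 17% and 30.9% of all genes. TRIM28, the corepressor itself and a gene of distal chromosome 19, was at 742 ± 22 CPM in Con, 751 ± 22.9 in CPT, 723 ± 70.0 in GTA+5-Aza and 731 ± 31.7 in CPT+GTA+5-Aza (-0.04, SE 0.04, edgeR adjusted p = 0.529). SETDB1 (-0.12) and DNMT1 (-0.03), the maintenance DNA methyltransferase, were not called over all libraries, with edgeR adjusted p of 0.19 and 0.592.

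The partners called over all libraries ranged widely in size. EHMT1, an H3K9 methyltransferase also known as GLP, fell from 102 ± 2.45 to 65.9 ± 5.95 CPM without CPT and from 103 ± 3.21 to 59.7 ± 3.96 with it (-0.71 over all libraries, SE 0.05, edgeR adjusted p = 1.88e-10). CHD3, a remodelling subunit of the NuRD complex that TRIM28 recruits, rose from 91.4 ± 5.23 to 130 ± 8.29 CPM and from 86.1 ± 4.10 to 128 ± 1.52 (0.54, SE 0.05, edgeR adjusted p = 2.86e-09). DNMT3B, a de novo DNA methyltransferase, rose from 26 ± 1.3 to 36.5 ± 2.58 CPM without CPT and from 26.4 ± 2.46 to 32.8 ± 2.35 with it, a call kept in 9 of 20 alternative fits (over all libraries 0.40, SE 0.07, edgeR adjusted p = 0.000142). ATRX, which keeps H3K9me3 at zinc finger genes, fell by 0.26 over all libraries (edgeR adjusted p = 0.000332), SUV39H1 by 0.26 (adjusted p = 0.000818), PPHLN1 by 0.19 (adjusted p = 0.0328, kept in 10 of 19 alternative fits) and DAXX by 0.16 (adjusted p = 0.0303, kept in 11 of 19 alternative fits).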

How the data were processed

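RNA-seq of 12 MiaPaca2 libraries was analysed from the raw gene counts that the authors deposited, which they made with Trim Galore, HISAT2 2.2.1 on GRCh38 and HTSeq. The strand setting and the handling of reads with several matches are not given in the sources used here. Counts were tested with edgeR 4.0.16 in R 4.3.3 (TMM, filterByExpr, glmQLFit, glmQLFTest, 1 mean per group, 12 libraries), with Benjamini-Hochberg adjustment over 17123 genes. CPM are counts per 1000000 of a library's counts in tested genes, scaled by TMM. Only the CPM of the filter used the library total without TMM. Of 63677 identifiers 52181 were in the GENCODE annotation, with 99.0% of counts. A fold rule (fold above 1.5, unadjusted P under 0.05) is given beside it, with the thresholds in the study's methods. The filter asked for 0.535 CPM, which is 10 counts at the median library size, in at least 3 libraries and 15 counts in all.

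Named members were, per priming comparison, up to 10 called in each direction with the smallest p, in each CPT comparison the 3 with the smallest p, members with a known role, the 5 highest per kilobase, and members at 0 in all unprimed and counted in all primed libraries (ZNF677 and ZNF486). The members and lists were chosen with earlier results of these data known. Alternatives were RLE or library-size scaling, other filters, DESeq2 1.42.0, a replicate block, removal of a GC trend, 2-group fits and leaving out each library. Protein domains were not analysed here. The fits were tested on simulated data.

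Same-numbered libraries did not regularly deviate together (correlations from -0.276 to 0.42, the highest between replicate 2 of Con and of CPT). Replicate numbers were therefore not taken as pairs.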

Additional observations from a re-analysis of the deposited data

How the results depend on the processing

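The median log2 fold change of members stayed positive in all 3 priming comparisons under every alternative. Without CPT (0.1097) it was 0.1505 with library-size scaling, 0.1436 with no filter and 0.1433 with the GC trend removed. With CPT (0.1543) it was 0.1947 and 0.2137 with library-size scaling and the GC trend removed. Over all libraries (0.1235) it was 0.1642, 0.1568 and 0.1704 in the order of scaling, filter and GC. Library-size scaling also moved the median of all genes, to between 0.0454 and 0.0473. Counts of calls moved more. Without CPT the 1 member called lower became 0 with library-size scaling, 0 with no filter, 3 in a 2-group fit and 2 with DESeq2. With CPT the 10 higher became 16 with library-size scaling and 25 with the GC trend removed, and the 2 lower became 6 with the GC trend removed and 1 in a 2-group fit. Over all libraries the 32 higher became 12 by the fold rule, and the 4 lower became 8 with the GC trend removed, 7 with DESeq2 and 0 by the fold rule. That rule gave 3 higher and 5 lower for CPT against Con, 2 and 3 for CPT in primed cells and 3 and 2 for the interaction, where edgeR called 0.

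Leaving out 1 library at a time, the higher and lower calls ranged from 4 to 18 and from 0 to 3 without CPT, from 6 to 12 and from 0 to 3 with CPT, and from 22 to 37 and from 3 to 7 over all libraries. The medians ranged from 0.0748 to 0.1242, from 0.1289 to 0.1608 and from 0.1058 to 0.1501. For CPT against Con they ranged from -0.0557 to 0.0160, for CPT in primed cells from -0.0311 to 0.0249 and for the interaction from -0.0155 to 0.0537, with 0 calls throughout. The 1 member called lower without CPT became 0 without Con replicate 1 or 3 or GTA+5-Aza replicate 3, and 3 and 2 without CPT replicates 2 and 3. Where an arm has 2 libraries its spread is taken from all groups.

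The sign reversed for ZNF331, which lay at zero over all libraries: -0.0066 with RLE, -0.0018 with the block, -0.0066 with the GC trend removed, -0.0063 with DESeq2, and from -0.0422 to 0.0507 in leave-one-out fits. It also reversed for ZNF350 (-0.0169 without CPT+GTA+5-Aza replicate 3, with up to 0.2853 in other such fits), ZNF428 (0.0596 without CPT replicate 2 and 0.0082 without GTA+5-Aza replicate 2, with down to -0.1391 in others) and ZNF580 (-0.0160 with the GC trend removed), none of them called. The causes were not tested.

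With the replicate number as a block, calls were 14 higher and 1 lower without CPT, 10 and 3 with CPT, and 31 and 4 over all libraries, with medians of 0.1149, 0.1581 and 0.1253. A library correlated best with its own number in 4 of 12 checks. Genes under about 10 reads per library rest on counting error, and a member with no read in a library could be present under the floor of 3 counts, which is 0.143 to 0.184 CPM.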
